A study of Homo sapiens with 12 samples.

Results

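The genes described here were higher in TNF-α-treated NCM460 cells than in medium, and lower again when HTRA2 was knocked down under TNF-α. They were selected on measured values. A protein-coding gene whose FPKM averaged 1 or more across the 12 libraries was taken when its lowest TNF-α value exceeded the highest medium and the highest knockdown value, its TNF-α mean was at least 1.2 times the medium mean, and its knockdown mean was at most 0.83 times the TNF-α mean. FPKM is the number of fragments per kilobase of gene, scaled to the mapped reads of the library. Of 58735 genes in the table, 10006 were protein-coding with that mean, and 84 of these (0.839%) met every condition. They were 84 of 852 genes raised by TNF-α under the same criteria, or 9.86%. Another 383 of the 852 (45.0%) were higher still in the knockdown by the same margins, and 385 (45.2%) were neither.

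NCM460 is a line of human normal colonic epithelial cells. There were 4 groups of 3 libraries: wild-type cells in medium, wild-type cells with TNF-α, wild-type cells with TNF-α and bufotenidine (5-OH-TMT), and HTRA2 knockdown cells with TNF-α. Nothing states that the 3 libraries of a group came from separate cultures, so p-values measure the spread between these libraries, which may be technical. The study describes a control siRNA for its knockdown comparison, but the labels of the TNF-α libraries name none. Whether these libraries were transfected is therefore not settled, and transfection and loss of HTRA2 cannot be told apart in the knockdown. The TNF-α dose and time, and whether the 3 knockdown libraries share 1 siRNA, are not given in the sources used here.

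TNF-α, a cytokine of mucosal inflammation, binds receptors on epithelial cells that activate NF-κB and the MAP kinases, and the latter switch on AP-1, a dimer of FOS and JUN family proteins. HTRA2 is a serine protease of the mitochondrial intermembrane space, known for its release into the cytosol during apoptosis. Growing cells also tie MAP kinase and MYC signalling to ribosome biogenesis, the assembly of ribosomal subunits in the nucleolus.

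The libraries held 31008429 to 37624399 reads on genes, as recovered from the FPKM steps. The 84 genes were not limited by low counts, since 80 of them had at least 100 reads in every library and the fewest reads of any of them in a library were 33. HTRA2 stood at 15.4, 14.0 and 14.2 FPKM in the TNF-α libraries and at 7.44, 7.18 and 7.22 in the knockdown libraries, a log2 difference of -0.98 ± 0.09 (SE, n = 3 and 3, limma adjusted p = 2.8e-05). The epithelial genes KRT8, KRT18, CDH1 and EPCAM averaged 1115, 1142, 66.8 and 66.6 FPKM, and KRT19 averaged 2.64. The other 7 of the 12 colonic epithelium markers, CDX1, CDX2, VIL1, CDH17, GPA33, KRT20 and LGALS4, each averaged under 0.1 FPKM, with CDX2 at 0 in every library, so the defining intestinal markers were absent or nearly so. Knockdown replicate 2 stood at 23.3 on the second principal component, against -0.95 and -2.57 in the rest of its group. Medium replicate 3 stood at 17.6 there, against 7.94 and -7.13 in its group. Knockdown replicate 2 had 2.95% mitochondrial reads against 3.69% to 4.68% in the other libraries. The summed FPKM of 8 fibroblast markers was 2.63 to 3.24 in the knockdown and 1.001 to 1.46 elsewhere, with THY1 and DCN at 0 throughout, and COL1A1 alone measured 2.60 to 3.21 in the knockdown while the other 7 each averaged under 0.1 FPKM. For 5 endothelial markers, of which CDH5 alone averaged at least 1 and KDR was at 0, the sum was 2.23 to 3.67 in the knockdown, 1.42 to 1.57 under TNF-α, 1.77 to 2.01 under 5-OH-TMT and 0.517 to 0.610 in medium. For 8 leukocyte markers, of which none averaged 1 and CD3E was at 0, it was 0.969 to 1.52 in the knockdown, 0.332 to 0.470 under TNF-α, 0.643 to 0.735 under 5-OH-TMT and 0.606 to 0.863 in medium. The part of these differences in the results was not tested.

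Most of the 84 genes had small TNF-α steps. The ratio of TNF-α to medium means had a median of 1.28 and ran from 1.2001 to 7.34, with 5 genes at 2 or more and 49 under 1.3. The ratio of knockdown to TNF-α means had a median of 0.745 and ran from 0.350 to 0.8298, with 5 genes at 0.5 or less. Without TNF-α replicate 1, 157 genes met the rule, 76 of them among the 84. Without medium replicate 3 it was 121, and without knockdown replicate 2 it was 103. In the knockdown, 50 of the 84 had a mean below that of medium and 34 were at or above it. Just inside the 1.2 limit lay AP4B1 (1.2001), ARFRP1 (1.2005) and MOCS2 (1.2007), and just outside lay HNRNPD (1.1996), PHF10 (1.197) and AFAP1L1 (1.191). At the other limit, WNT7A (0.8298), INAFM2 (0.8269) and ARGLU1 (0.8256) were inside, and MAP3K20 (0.8320), CLCF1 (0.8325) and CCDC59 (0.8349) were outside. In the limma fit 29 of the 84 had an adjusted p under 0.05 for TNF-α against medium, where 3.22% of 18079 genes were called higher. For knockdown against TNF-α it was 61, where 8.08% were called lower. Both were under 0.05 for 23 of the 84. Of the 10006 genes, 4.90% were called higher in the first contrast and 12.1% lower in the second. Nothing is read from these shares, since both contrasts chose the genes and share the TNF-α libraries.

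**Figure D1:**
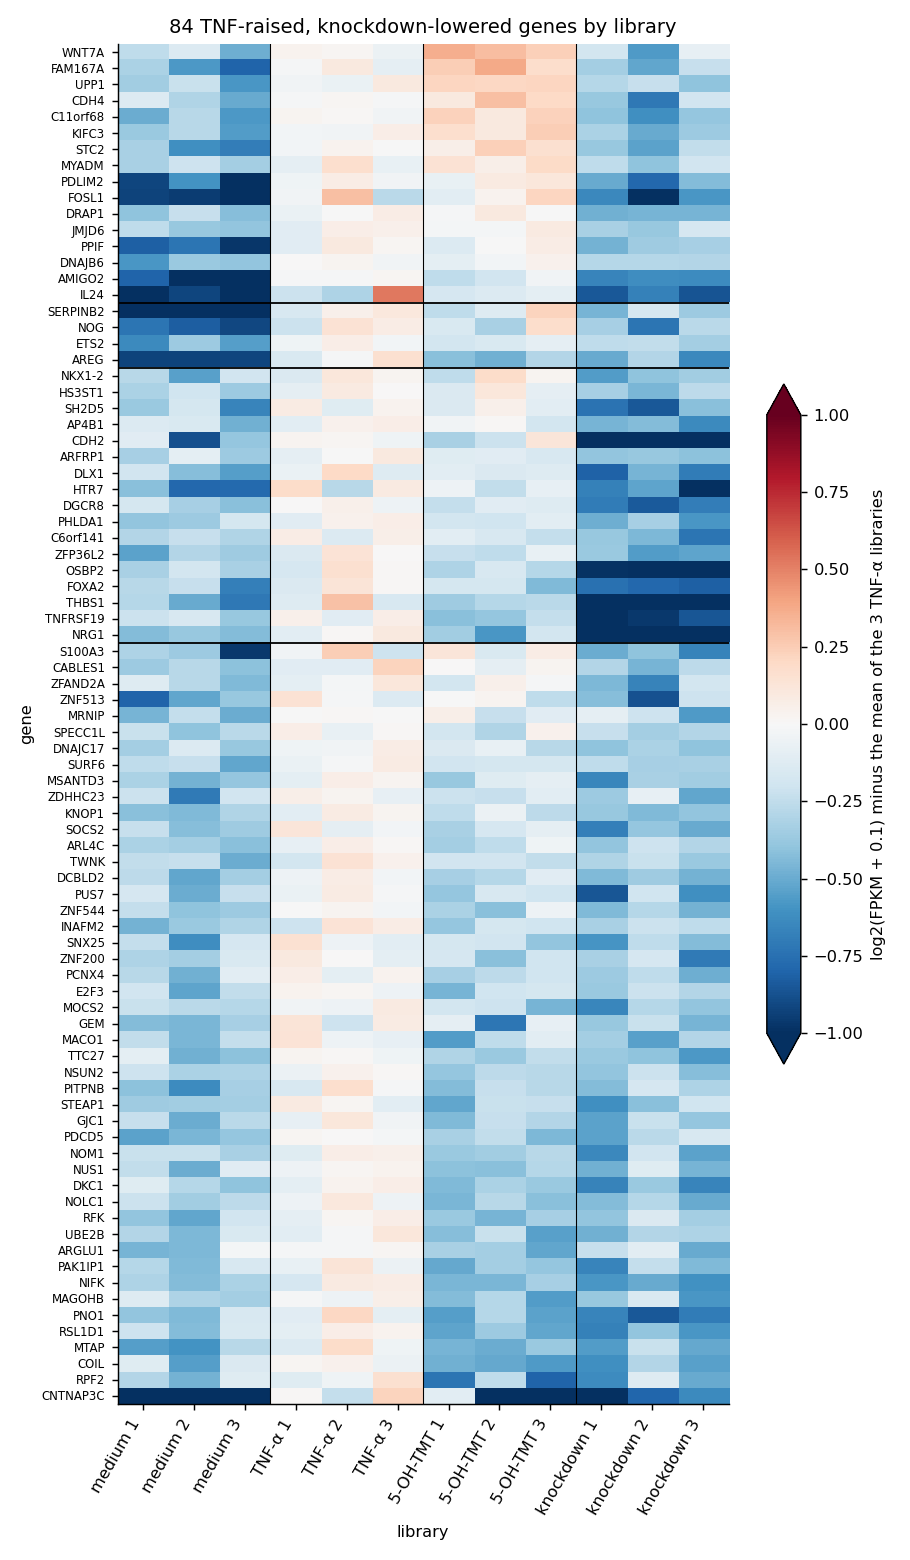
Each row is 1 of the 84 genes and each column 1 of the 12 libraries, with color giving log2(FPKM + 0.1) minus the mean of the 3 TNF-α libraries (color ends at 1 and -1). Lines split the genes into those called both higher with 5-OH-TMT than in medium and lower in the knockdown than with 5-OH-TMT (16, top), then the first call only (4), the second only (17) and neither (47). Within each class, rows run from the highest to the lowest ratio of 5-OH-TMT to TNF-α means. The color change down the 5-OH-TMT columns follows from this order.

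The 5-OH-TMT libraries also received TNF-α. They entered the selection only through the mean FPKM over the 12 libraries, not through its 2 comparisons, so every gene was examined in them. Relative to the TNF-α mean, the median of the 84 genes was -0.23, -0.20 and -0.17 on the log2 scale in the 3 5-OH-TMT libraries. It was -0.31 to -0.42 in medium and -0.38 to -0.46 in the knockdown. The median of the 84 genes lay between the TNF-α and the medium levels in all 3 5-OH-TMT libraries. The rule chose TNF-α values high and medium values low, so a position between them is favoured by the choice. No effect of 5-OH-TMT is read from it.

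In 5-OH-TMT against TNF-α, whose TNF-α side was chosen to be high, limma called 0 of the 84 genes at an adjusted p under 0.05, against 7 of 18079 genes (0.0387%). At an unadjusted p under 0.05 it called 40 of the 84, of which 37 were lower with 5-OH-TMT. The share in either direction was 20.1% of all genes and 29.0% of the 10006 genes, which have the type and mean FPKM of the 84. The voom fit on recovered reads called 7 of the 84, beside 236 of 18079 genes. Limma on those 2 groups alone called 13, beside 911 of 18079 genes. The median log2 difference was -0.19, against 0.00 over all genes tested, and 71 of 84 values were negative. Every 5-OH-TMT library lay below every TNF-α library for 44 of the 84, and this held for 22.3% of the 10006 genes. Of the 1357 genes lower in the knockdown but not raised by TNF-α, which share the same TNF-α side, 571 (42.1%) lay below in this way, 480 were lower at an unadjusted p under 0.05, and the median was -0.15.

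In 5-OH-TMT against medium, whose medium side was chosen to be low, 20 of the 84 genes rose and none fell in the limma fit. The share called higher was 4.99% of all genes and 7.55% of the 10006 genes. Unadjusted, 31 of the 84 had p under 0.05 and all were higher. The median log2 difference was 0.15, beside -0.01 over all genes. Among the other 768 TNF-raised genes, chosen on the same medium and TNF-α libraries, 500 (65.1%) rose and the median was 0.53. Every 5-OH-TMT library lay above every medium library for 31 of the 84 and for 18.1% of the 10006 genes.

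In knockdown against 5-OH-TMT, whose knockdown side was chosen to be low, 33 of the 84 fell and none rose. The share called lower was 7.43% of all genes and 11.4% of the 10006 genes. Unadjusted, 43 had p under 0.05, and all were lower. The median log2 difference was -0.25 against 0.01 over all genes. Of the 1357 genes lower in the knockdown but not raised by TNF-α, 616 (45.4%) fell in this contrast, with a median of -0.28. Every knockdown library lay below every 5-OH-TMT library for 44 of the 84 and for 23.9% of the 10006 genes. Without 5-OH-TMT replicate 2 the count of 33 dropped to 18, without 5-OH-TMT replicate 1 or replicate 3 it was 21, and without knockdown replicate 1 or replicate 2 it was 19 or 25. Calls over all 18079 genes dropped in the same fits, from 1343 to 540, to 592 or 855, and to 802 or 747.

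**Figure D2:**
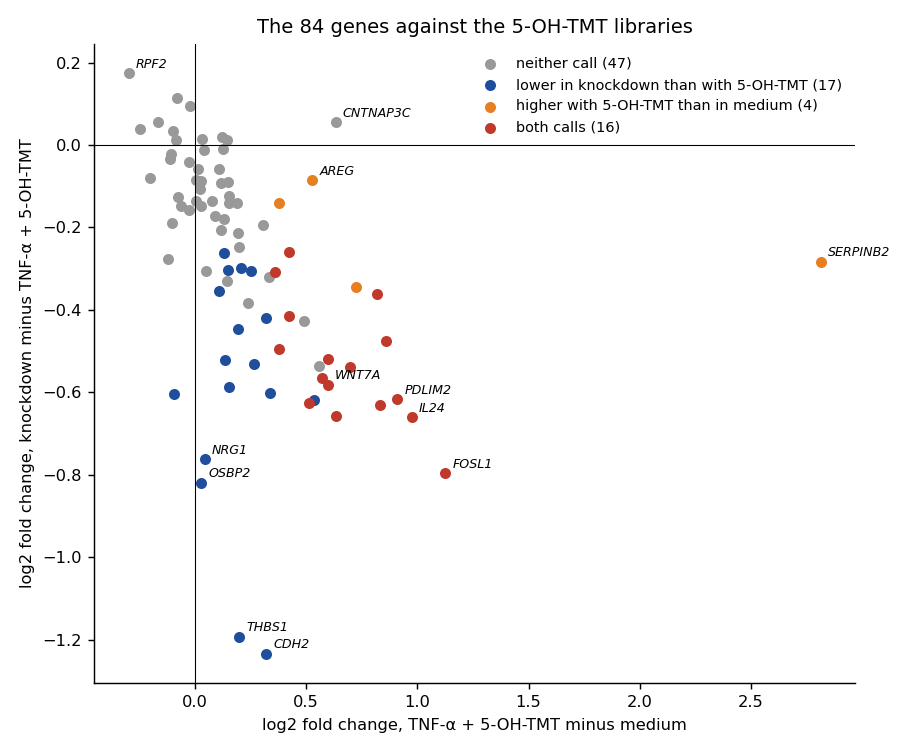
Each point is 1 of the 84 genes, placed by its log2 fold change in 5-OH-TMT minus medium (horizontal) and in knockdown minus 5-OH-TMT (vertical), both on the log2(FPKM + 0.1) scale and sharing the 5-OH-TMT libraries. Color marks the calls at an adjusted p under 0.05, and FOSL1, PDLIM2 and IL24 lie to the lower right, THBS1 and CDH2 at the bottom, and RPF2 at the upper left.

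Both calls were made for 16 of the 84 genes, beside 51 of 18079 genes (0.282%) that rose in the first contrast and fell in the second. These were FOSL1, IL24, PDLIM2, AMIGO2, FAM167A, PPIF, STC2, C11orf68, WNT7A, UPP1, KIFC3, CDH4, DNAJB6, MYADM, DRAP1 and JMJD6. Both contrasts use the 5-OH-TMT libraries, so a high value there moves both. Across the 16, the 5-OH-TMT mean was 0.877 to 1.24 times the TNF-α mean, with a median of 1.06. Under every processing setting and with every library of the contrasts left out in turn, 9 of the 16 held both calls: FOSL1, DRAP1, UPP1, C11orf68, AMIGO2, STC2, FAM167A, KIFC3 and PDLIM2.

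FOSL1 encodes Fra-1, a FOS family subunit of AP-1. It measured 68.5, 67.4 and 50.6 FPKM in medium, 127, 161 and 108 under TNF-α, 121, 133 and 151 under 5-OH-TMT, and 83.3, 64.1 and 86.9 in the knockdown. The TNF-α and 5-OH-TMT ranges overlapped, and both lay above all medium and knockdown values. The log2 difference was 1.12 ± 0.17 (SE) for 5-OH-TMT against medium (limma adjusted p = 0.0012) and -0.80 ± 0.17 for knockdown against 5-OH-TMT (limma adjusted p = 0.0088). The knockdown mean of 78.1 ± 12.3 FPKM (SD, n = 3) kept 22.8% of the TNF-α rise.

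IL24 encodes a cytokine of the IL-10 family. Its values were 5.40, 6.87 and 5.83 FPKM in medium, 11.2, 10.5 and 18.9 under TNF-α, 11.6, 11.9 and 12.2 under 5-OH-TMT, and 7.21, 8.15 and 7.13 in the knockdown. TNF-α replicate 3 was well above the other two, while the 5-OH-TMT libraries sat close together. IL24 rose by 0.97 ± 0.18 on the log2 scale with 5-OH-TMT against medium (limma adjusted p = 0.0055) and fell by 0.66 ± 0.18 in the knockdown against 5-OH-TMT (limma adjusted p = 0.028). The knockdown stayed above every medium library.

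AMIGO2, a cell adhesion protein, had 15.7, 11.6 and 13.2 FPKM in medium, 27.1, 27.1 and 27.7 under TNF-α, 22.8, 23.8 and 26.6 under 5-OH-TMT, and 17.2, 17.7 and 17.6 in the knockdown. The 4 groups did not overlap. PPIF, the cyclophilin of the mitochondrial permeability transition, went from 116 ± 9.91 FPKM in medium (SD, n = 3) to 207 ± 15.1 under TNF-α, 204 ± 15.0 under 5-OH-TMT and 158 ± 8.40 in the knockdown. PPIF kept 46.8% of its TNF-α rise in the knockdown. PDLIM2, an adaptor known to promote turnover of the NF-κB subunit p65, measured 1.36 ± 0.25, 2.54 ± 0.12, 2.63 ± 0.19 and 1.68 ± 0.22 FPKM in the same order.

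Some of the 16 were higher with 5-OH-TMT than with TNF-α alone. Among the 84, the lowest 5-OH-TMT value exceeded the highest TNF-α value for 7 genes, and the groups were separated the other way for 44. Of the 10006 genes, 22.8% were higher in this way. The rule chose high TNF-α values, so a low share among the 84 is favoured by the choice. WNT7A, a secreted WNT ligand, measured 9.17, 9.07 and 8.57 FPKM under TNF-α and 11.5, 11.1 and 10.5 under 5-OH-TMT, without overlap. UPP1, which cleaves uridine, measured 63.4, 62.1 and 69.7 FPKM under TNF-α and 75.2, 75.1 and 75.4 under 5-OH-TMT. The log2 differences, 0.30 ± 0.12 for WNT7A and 0.21 ± 0.09 for UPP1, did not pass the limma test (adjusted p = 0.20 and 0.21). C11orf68 (0.19 ± 0.09), CDH4, which encodes R-cadherin (0.20 ± 0.13), and FAM167A (0.27 ± 0.13) were the other three of the 5 highest values in this contrast, with adjusted p of 0.25, 0.42 and 0.26 in limma.

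FOSL1, C11orf68 and DRAP1 are neighbours on chromosome 11 (hg38). FOSL1 spans 65892049 to 65900573 on the minus strand, C11orf68 spans 65916808 to 65919117 on the minus strand, and DRAP1 spans 65919257 to 65921561 on the plus strand. The gaps are 16235 bases and 140 bases. DRAP1, a transcriptional corepressor, had 138, 155 and 136 FPKM in medium, 174, 181 and 192 under TNF-α, 180, 195 and 182 under 5-OH-TMT, and 130, 132 and 132 in the knockdown. C11orf68 had 47.3 ± 5.10, 64.3 ± 1.36, 73.3 ± 3.91 and 46.5 ± 3.99 FPKM (SD, n = 3) in these groups. The next genes on the FOSL1 side were not among the 84: the TNF-α to medium ratio was 1.10 for CCDC85B and 0.957 for FIBP, and the knockdown to TNF-α ratios were 0.680 and 1.005. Whether the counting used strand is not stated.

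**Figure D3:**
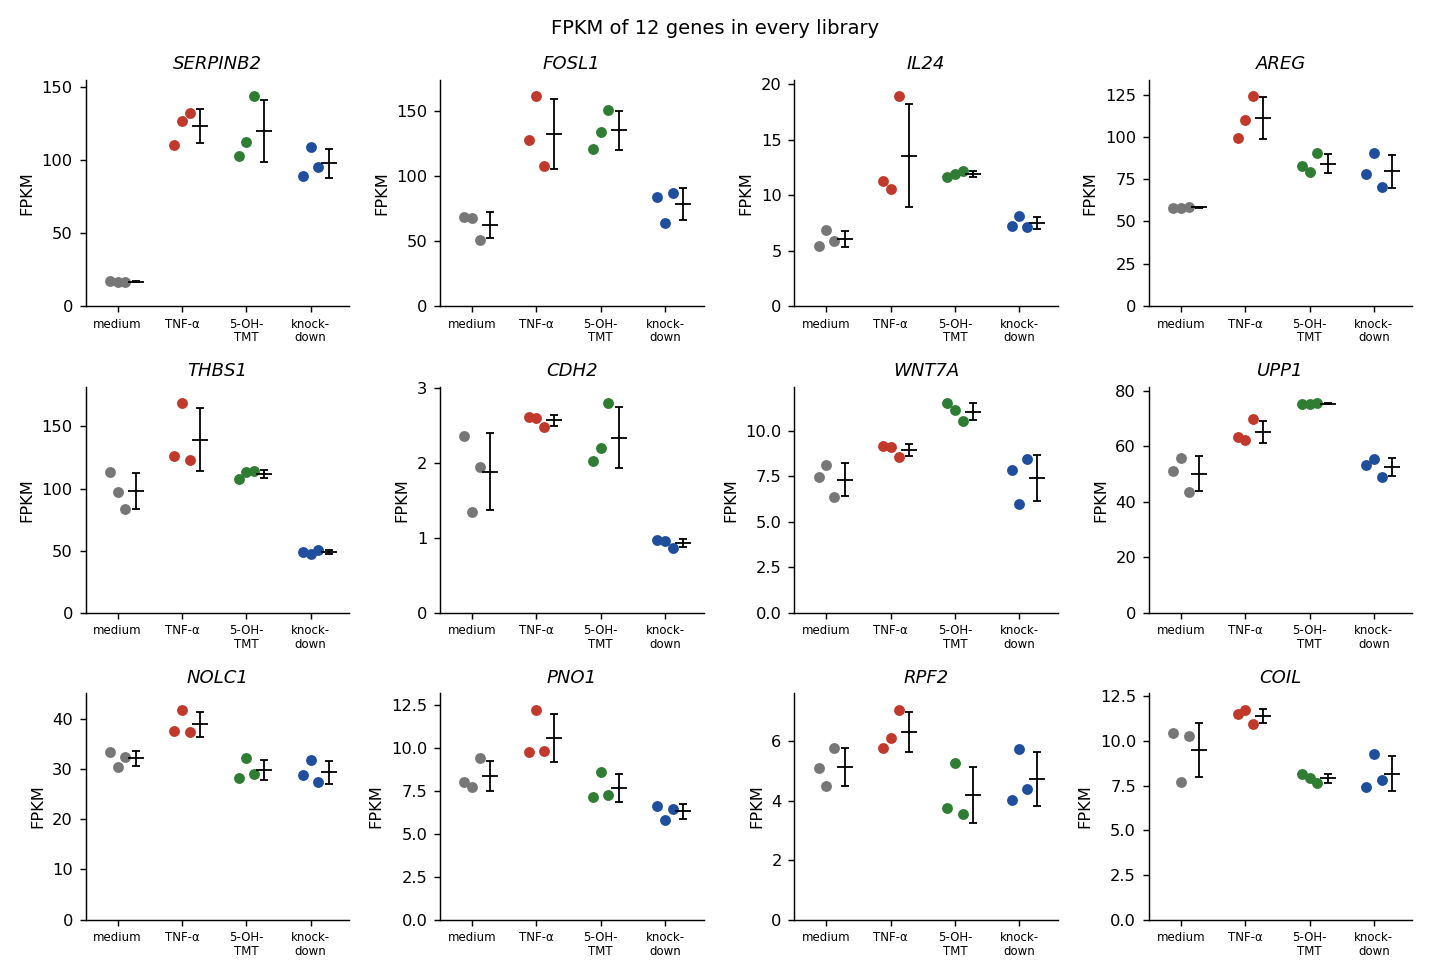
FPKM of 12 of the 84 genes in each library (points), with the mean and SD of the 3 libraries (bar to the right of each group), on axes that start at 0. FOSL1 and IL24 have overlapping TNF-α and 5-OH-TMT values, THBS1 and CDH2 lie below medium in the knockdown, and NOLC1, PNO1, RPF2 and COIL have 5-OH-TMT means below medium.

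SERPINB2, which encodes the plasminogen activator inhibitor PAI-2, had the largest TNF-α ratio. It measured 17.2, 16.6 and 16.4 FPKM in medium, 110, 127 and 132 under TNF-α, 103, 112 and 143 under 5-OH-TMT, and 88.8, 109 and 95.4 in the knockdown. All 9 TNF-α-treated libraries were far above medium, and the knockdown range overlapped that of 5-OH-TMT. The log2 difference of 5-OH-TMT against medium was 2.81 ± 0.12 (limma adjusted p = 5.5e-08), that of knockdown against 5-OH-TMT was -0.28 ± 0.12 (limma adjusted p = 0.13), and 76.1% of the rise was kept in the knockdown.

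AREG encodes amphiregulin, a ligand of the EGF receptor. Its values were 58.2, 58.2 and 58.4 FPKM in medium, 99.5, 110 and 124 under TNF-α, 82.9, 79.2 and 90.3 under 5-OH-TMT, and 77.9, 90.3 and 70.7 in the knockdown. The 5-OH-TMT and knockdown libraries overlapped, below all TNF-α libraries and above all medium libraries. AREG rose by 0.53 ± 0.10 on the log2 scale with 5-OH-TMT against medium (limma adjusted p = 0.0060), and 5-OH-TMT against TNF-α gave -0.40 ± 0.10 (limma adjusted p = 0.096). NOG, a secreted antagonist of BMPs, and ETS2, a transcription factor downstream of ERK, were the other genes called only against medium, by 0.72 ± 0.15 and 0.38 ± 0.07 (limma adjusted p = 0.015 and 0.0088).

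The 5 genes with a knockdown to TNF-α ratio of 0.5 or less were THBS1, CDH2, NRG1, OSBP2 and TNFRSF19. Their TNF-α to medium ratios were at most 1.42. This did not extend to all of the 12 smallest knockdown ratios. CNTNAP3C, IL24 and FOSL1 were among these 12, at 0.543, 0.554 and 0.592, with TNF-α to medium ratios of 3.09, 2.25 and 2.12. The TNF-α rise over medium was called for THBS1 (limma adjusted p = 0.040). It was not called for CDH2, NRG1, OSBP2, TNFRSF19, FOXA2, DGCR8 or HTR7 (limma adjusted p = 0.22, 0.078, 0.17, 0.36, 0.14, 0.065 and 0.052). That contrast was part of the choice of these genes, so nothing is read from these calls. THBS1, the matrix glycoprotein thrombospondin-1, measured 113, 97.2 and 83.9 FPKM in medium, 126, 169 and 123 under TNF-α, 108, 113 and 114 under 5-OH-TMT, and 48.6, 47.5 and 50.3 in the knockdown. The knockdown libraries were below all others, and medium and 5-OH-TMT overlapped. Knockdown against 5-OH-TMT gave -1.19 ± 0.12 (limma adjusted p = 0.00013), and the knockdown mean was 0.498 times that of medium. CDH2, which encodes N-cadherin, measured 2.36, 1.35 and 1.94 FPKM in medium, 2.61, 2.60 and 2.48 under TNF-α, 2.02, 2.19 and 2.79 under 5-OH-TMT, and 0.963, 0.952 and 0.865 in the knockdown. Knockdown against 5-OH-TMT gave -1.23 ± 0.18 for CDH2 (limma adjusted p = 0.0010).

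NRG1, a ligand of ERBB receptors, OSBP2, an oxysterol-binding protein, and TNFRSF19, a receptor of the TNF family, also had every knockdown library below every medium library. Their knockdown means were 0.586, 0.566 and 0.585 times medium. Knockdown against 5-OH-TMT gave -0.76 ± 0.12, -0.82 ± 0.10 and -0.60 ± 0.12 for the 3 genes (limma adjusted p = 0.0015, 0.00033 and 0.0064). FOXA2, a transcription factor of endoderm, DGCR8, the partner of Drosha in microRNA processing, and HTR7, a serotonin receptor, fell by 0.52, 0.59 and 0.62 in this contrast (limma adjusted p = 0.021, 0.0010 and 0.030). All 6 had knockdown libraries below every 5-OH-TMT library. With THBS1, CDH2, DLX1, SH2D5, PHLDA1, NKX1-2, HS3ST1, C6orf141, ZFP36L2, ARFRP1 and AP4B1 they were the 17 genes called only in this contrast. Over the 17, the median ratio of 5-OH-TMT to medium was 1.14 and that of knockdown to medium was 0.824.

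The 47 genes with neither call had a median 5-OH-TMT to TNF-α ratio of 0.817, running from 0.562 to 1.004. Their median 5-OH-TMT to medium ratio was 1.03. A high 5-OH-TMT value moves a gene towards both calls, so low values in this class are favoured by the split. Among the 47 were 10 factors of ribosome biogenesis: NOLC1, DKC1, NIFK, RSL1D1, RPF2, PNO1, PAK1IP1, NOM1, SURF6 and KNOP1. NOLC1, a nucleolar chaperone of small nucleolar ribonucleoproteins, had 33.4, 30.4 and 32.4 FPKM in medium, 37.5, 41.7 and 37.4 under TNF-α, 28.2, 32.1 and 29.0 under 5-OH-TMT, and 28.8, 31.9 and 27.4 in the knockdown. The 5-OH-TMT values overlapped those of medium and of the knockdown and lay below all TNF-α values. PNO1, needed for maturation of the small subunit, had means of 8.36 ± 0.90, 10.6 ± 1.40, 7.67 ± 0.82 and 6.30 ± 0.44 FPKM (SD, n = 3) in medium, TNF-α, 5-OH-TMT and knockdown.

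The 5 lowest values of 5-OH-TMT against TNF-α were CNTNAP3C, RPF2, COIL, RSL1D1 and PNO1. RPF2, which assembles the ribonucleoprotein of the smallest ribosomal RNA, measured 5.79, 6.10 and 7.06 FPKM under TNF-α and 3.75, 5.27 and 3.56 under 5-OH-TMT. COIL, the scaffold of Cajal bodies, measured 11.5, 11.7 and 10.9 FPKM under TNF-α and 8.13, 7.94 and 7.64 under 5-OH-TMT. Neither overlapped, and the log2 differences of -0.60 ± 0.17 and -0.52 ± 0.11 did not pass the limma test (adjusted p = 0.11 and 0.087). RSL1D1 and PNO1 gave -0.47 ± 0.09 and -0.46 ± 0.11 (limma adjusted p = 0.084 and 0.096). CNTNAP3C, with -0.89 ± 0.29 (limma adjusted p = 0.14), had 33 to 174 reads per library and belongs to a family of near-identical copies, so its counts are uncertain.

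A list of 82 ribosome biogenesis factors was written after the 84 genes had been seen, so its counts are a description. It holds 10 of the 84, which were chosen to be high under TNF-α and low in medium and the knockdown. Of 81 tested, 46 fell and none rose in knockdown against TNF-α, and the list median was -0.39 against 0.00 over all genes. Of all genes 8.08% fell and 9.35% rose, and of the 10006 genes 12.1% fell and 13.0% rose. The 10 were not set apart in these counts. In TNF-α against medium 3 rose (NIFK, KNOP1 and SURF6) and none fell, beside 3.22% higher and 0.885% lower over all genes, and the median was 0.10. These 3 are among the 84, which that contrast helped to choose. In 5-OH-TMT against TNF-α limma called 0 of 81, with 41 at an unadjusted p under 0.05, all lower, and a median of -0.26, beside 0.0387% and 20.1% of all genes in either direction and a median of 0.00. NOP56 and BOP1, which are not among the 84, had the lowest log2 differences of the list in knockdown against TNF-α. They went from 19.7 to 11.1 FPKM and from 91.2 to 52.2 FPKM. Their TNF-α to medium differences were 0.02 and -0.03 on the log2 scale.

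None of 38 NF-κB target genes was among the 84. Of 36 tested, 28 rose with TNF-α and none fell, beside 3.22% and 0.885% of all genes. In the knockdown against TNF-α 24 rose and 1 fell, with a median of 0.70, beside 9.35% and 8.08% of all genes and a median of 0.00, and the same background applies to the other lists below. TNFAIP3, a feedback inhibitor of NF-κB, averaged 1.22 FPKM in medium, 28.3 under TNF-α, 30.3 under 5-OH-TMT and 57.3 in the knockdown. None of 42 interferon-stimulated genes was among the 84 either, and all 42 rose in the knockdown against TNF-α. The list of 23 EGF receptor ligands and ERK feedback genes held FOSL1, AREG and PHLDA1, and 6 rose and 3 fell in that contrast, the 3 being these genes. The rule required these 3 to be lower in the knockdown, so no fall of the list is read from them. In TNF-α against medium 8 of the 23 rose, among them FOSL1 and AREG, which that contrast helped to choose. HBEGF, another ligand of the EGF receptor, averaged 9.48, 39.7, 46.7 and 56.1 FPKM in medium, TNF-α, 5-OH-TMT and knockdown. The cytokine list of 37 genes held IL24, and the protease and matrix list of 35 held SERPINB2 and THBS1. In the latter, 23 of 32 tested genes rose and 2 fell in the knockdown against TNF-α. The 2 included THBS1, which the rule required to be lower.

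**Figure D4:**
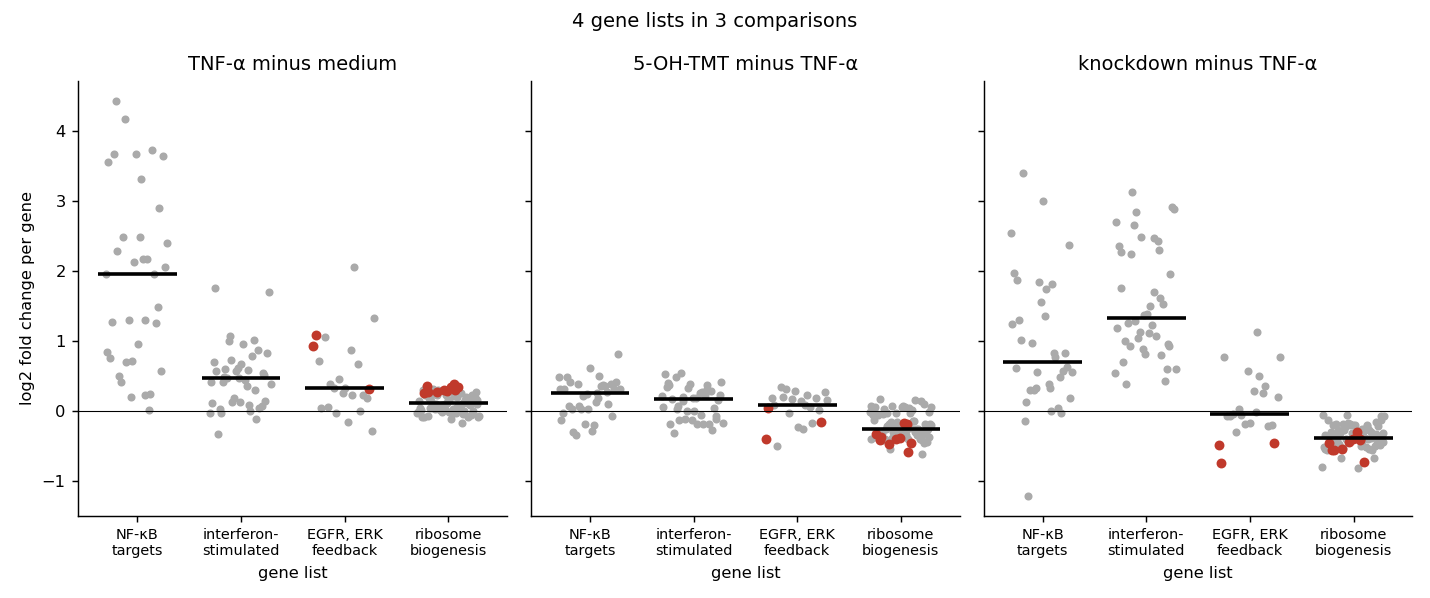
Log2 fold change of each tested gene of 4 lists in TNF-α minus medium, 5-OH-TMT minus TNF-α and knockdown minus TNF-α, with bars at the list medians and red points for the genes described here. The NF-κB list holds no red point, and the ribosome biogenesis list has a median of -0.39 in the right panel.

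Promoter sequence was available in RefSeq (GRCh38.p14) for 63 of the 84 genes, with FOSL1 not among them, and the 250 bases before the start were searched on both strands. A κB consensus was found in 5 of the 63 (7.94%), beside 6.07% of 8004 promoters of the 10006 genes. The AP-1 element TGANTCA was found in 6 (9.52%) beside 3.80%, and the interferon response element (ISRE) in 1 (1.59%) beside 2.36%. No 2 motifs overlapped in a promoter of the 63. Among 593 promoters of the other TNF-raised genes the shares were 13.2%, 6.75% and 5.06%. Over all 27305 promoters, they were 5.05%, 6.60% and 3.07%. Median GC content was 66.4% for the 63 and 65.6% for the 8004. The 3 promoters below belong to genes with a large TNF-α step and hold a match, which is printed in capitals and is a description of the letters only. SERPINB2 and AMIGO2 hold the AP-1 element and IL24 the interferon element, on its reverse strand. They lie at chr18:63887455-63887704 (plus strand), chr12:47079952-47080201 (minus strand) and chr1:206897193-206897442 (plus strand), and the SERPINB2 start used lies inside the gene model of the table.
SERPINB2: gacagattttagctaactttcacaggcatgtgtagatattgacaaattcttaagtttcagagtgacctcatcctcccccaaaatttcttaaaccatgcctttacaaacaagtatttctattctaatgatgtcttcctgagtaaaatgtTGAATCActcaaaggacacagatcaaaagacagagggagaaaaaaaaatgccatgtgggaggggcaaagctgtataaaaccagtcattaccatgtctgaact
AMIGO2: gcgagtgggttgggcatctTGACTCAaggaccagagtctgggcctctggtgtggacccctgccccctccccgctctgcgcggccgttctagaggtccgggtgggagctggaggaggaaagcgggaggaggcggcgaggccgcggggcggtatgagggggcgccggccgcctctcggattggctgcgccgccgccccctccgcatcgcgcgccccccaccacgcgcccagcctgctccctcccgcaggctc
IL24: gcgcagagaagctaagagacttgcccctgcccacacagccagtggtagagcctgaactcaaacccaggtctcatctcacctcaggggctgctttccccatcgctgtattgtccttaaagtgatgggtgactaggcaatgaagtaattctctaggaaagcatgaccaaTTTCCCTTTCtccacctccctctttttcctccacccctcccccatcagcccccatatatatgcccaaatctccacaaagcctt

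The median of the mean FPKM of the 84 genes was 6.10 against 7.08 for the 10006 genes, and the median gene length was 4578 against 5028.5 bases. Of the 84, 16 overlapped another gene with a mean FPKM of at least 1. For KIFC3, S100A3 and MRNIP an overlapping gene lay on the same strand, where strand would not separate the reads. For the others, AMIGO2, DGCR8 and ZNF513 among them, reads in the overlap cannot be separated if strand was not used.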

How the data were processed

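RNA-seq of NCM460 cells was measured in 12 libraries, 3 in each of 4 groups. The deposited values are FPKM per gene, made by the authors; the submitters' processing notes name CASAVA 1.8, HISAT2 2.0.4, HTSeq 0.9.1 and hg38. Strandedness and annotation release are not given in the sources used here. Multiplying FPKM by gene length and dividing by the product's smallest value above 0 in the library, taken as 1 read, gave whole reads in every library for 100% of values of 1 to 200 reads (tolerance 0.01 reads). The main fit used limma 3.58.1 with trend on log2(FPKM + 0.1) over all 12 libraries, for the 18079 genes whose FPKM averaged 0.1 or more, with Benjamini-Hochberg adjustment over all of them. The pseudocount understates the change of low genes. Errors of differences are standard errors with 8 residual degrees of freedom before moderation. The fit was tested on simulated data.

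The members, the gene lists and the tests were chosen with earlier results of these data known. Named were HTRA2, the 12 members with the largest TNF-α ratio, the 12 with the smallest knockdown ratio, the 5 highest and 5 lowest in 5-OH-TMT against TNF-α, members on a list, those nearest each limit, and the 5 lowest against medium in the knockdown. The other genes named, with their calls against the 5-OH-TMT libraries, the chromosome 11 neighbours and the ribosome biogenesis list, were chosen after their values were seen. Alternatives were other pseudocounts, filters, scalings and fits, the replicate block, voom on recovered reads, and each library left out. No columns of per-sample values were left unused.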

Additional observations from a re-analysis of the deposited data

How the results depend on the processing

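The number of genes meeting the rule was 84. It was 48 with a mean FPKM of at least 5, 6 with folds of 1.5 and 0.67, 62 after median-of-ratios scaling and 66 after scaling to equal totals, the last chosen after seeing the data, of which 62 and 61 were among the 84. With 1 library left out it ran from 77 to 157, the latter without TNF-α replicate 1. For 5-OH-TMT against TNF-α, 0 genes were called in the main fit, 4 when the test was limited to an average FPKM of 1 or more, 13 with the 2 groups alone and 7 with voom on recovered reads. Its median log2 difference of -0.19 became -0.13 under the stricter folds and ran from -0.24 to -0.18 with a library left out. For 5-OH-TMT against medium the count of 20 ran from 15 to 20 with a library left out, and the median of 0.15 became 0.10 with voom and 0.88 under the stricter folds. For knockdown against 5-OH-TMT the count of 33 ran from 18 to 25 with a library left out and was 14 of 23 among the members with an adjusted p under 0.05 in both selection steps, a choice made after seeing the data. Its median of -0.25 became -0.20 with a pseudocount of 1, -0.17 with a mean FPKM of at least 5, -0.31 after median-of-ratios scaling before the rule and -0.62 under the stricter folds. Calls over all genes tested moved as well. Limited to an average FPKM of 1 or more, 5-OH-TMT against TNF-α called 127 of 11185 genes. With the 2 groups alone it was 911 of 18079, and with voom 236. In 5-OH-TMT against medium, the 902 called higher ran from 521 to 1088 with a library left out. In knockdown against 5-OH-TMT, the 1343 called lower ran from 540 to 1445. The causes of these changes were not tested. No median changed sign under any setting run, and HTRA2 was called lower under every setting run.

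The replicate numbers were not shown to pair the libraries, since the correlations of same-numbered deviations ran from -0.37 to 0.15. With the replicate block, the counts of 0, 20 and 33 were 0, 19 and 27. Over all genes tested, the counts of 7, 902 and 1343 were 1, 721 and 948. The depth of 31008429 to 37624399 reads gave at least 100 reads per library for 80 of the 84 genes.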
